A study of Mus musculus with 8 samples.

Results

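The 45 genes described here encode the machinery of mitosis: mitotic kinases, kinesins, spindle checkpoint proteins, centromere proteins and the factors that condense, separate and divide chromosomes. They were chosen by name from that machinery, and each was read from the probe set annotated to its symbol alone, as a log2 expression level. Of the 45, 43 had such a probe set, among 22180 genes with a value in all, and each of the 43 had a single one. Ccnb1, cyclin B1, had none that carries its symbol alone, and the only probe set naming Ncapg, a condensin subunit, also names Lcorl, so these 2 genes have no value here.

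The tumours had grown from cells of the mouse neural crest, an embryonic population whose descendants include sympathetic neurons, chromaffin cells, glia and pigment cells. The cells had been transduced with N-Myc, the MYC family transcription factor that is amplified in high-risk neuroblastoma, and the pool held p53+/- and p53-/- cells, a mixture the submitters call N-Myc; p53mixed. About 10000 cells were injected under the skin 48 hours after infection, and tumours were removed after about 50 days. All 8 tumours (1 array each) carry this single label, so they form 1 group with no normal tissue or cultured cells to set them against. Both nude and C57Bl/6 hosts were used. No label ties a tumour to a host strain, to 1 of the p53 genotypes, to an animal or to a culture, so p-values measure only the spread between these samples, which may be technical. The sources used here do not state which promoter drives N-Myc.

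In dividing cells the transcripts of these genes rise in G2 and fall after division. Cyclin B with Cdk1 starts mitosis, kinesins and Aurora kinases build the spindle, the checkpoint holds anaphase back until every chromosome is attached, and Cdc20 with the anaphase-promoting complex then releases the sister chromatids. N-Myc is known for driving neuroblasts through the cell cycle, and mitotic kinases such as Aurora A are studied as drug targets in neuroblastoma. Many late cell cycle promoters carry a CHR element (cell cycle genes homology region), which is bound by the DREAM complex in resting cells and by the B-Myb complex with Foxm1 in G2, together with CCAAT boxes bound by NF-Y.

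The promoter windows of the mitosis genes shared these elements. RefSeq windows (GRCm38.p6, 250 bases before to 50 after the start) were at hand for 37 of the 45 genes. Those of Ccna2, Aurkb, Foxm1, Tpx2, Kif20a, Incenp, Smc4 and Cdc25c are not used here. A CHR element (TTTGAA or TTCGAA, either strand) stood in 29 of the 37 (78.4%), against 21.7% of the 27025 genes in the promoter table and 15.7% of the 9967 genes with a window that were detected on these arrays. A CCAAT box (either strand) stood in 28 of 37 (75.7%), against 41.1% of all genes, and both elements in 25 of 37 (67.6%), against 8.61%. The E-box CACGTG, a Myc binding motif, stood in 3 of 37 (Anln, Espl1 and Ttk, 8.11%). It stood in 8.09% of all genes and in 11.5% of the genes with a window that were detected on these arrays. Among 66 other mitosis genes with a window 63.6% held the CHR element, and among 30 DNA replication genes 26.7%. In 26 of the 37 genes a CHR element lay within 50 bases of the start, a distance at which the share of all genes was not counted. From 100 bases before to 50 after the start, 27 of the 37 (73%) held one, against 9.87% of all genes. A match of letters is a description and was not tested as a binding site.

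The 8 windows below are shown because their genes recur in the results. Cdk1 and Ccnb2 stand for the switch into mitosis, Plk1 and Aurka for the mitotic kinases, and Cdc20 for anaphase. Mki67 and Cenpf stand for the pattern that Foxm1 shared, and Pttg1 for members that ran against it. Ccnb2 also ran against it (r = -0.75 with Foxm1, -0.63 with Cenpf and -0.60 with Mki67), as did Melk (-0.57, -0.59 and -0.58). Each window is written in the direction of transcription, with CHR elements and CCAAT boxes (ATTGG on the other strand) in capitals. Cdk1 lies at chr10:69352863-69353162 (minus strand), Ccnb2 at chr9:70421505-70421804 (minus strand), Plk1 at chr7:122159185-122159484 (plus strand) and Aurka at chr2:172370521-172370820 (minus strand). Cdc20 lies at chr4:118437294-118437593 (minus strand), Mki67 at chr7:135716330-135716629 (minus strand), Cenpf at chr1:189688037-189688336 (minus strand) and Pttg1 at chr11:43425932-43426231 (minus strand). The elements sit at -71 and -15 (CHR) from the start in Cdk1, at 5 in Ccnb2 with a further one at -167, at 31 in Plk1, at 33 in Aurka, at -18 in Cdc20, at -116 and -98 in Mki67 and at 3 in Cenpf. The window of Pttg1 holds none of the searched letters, and neither do those of Kif18a, Mad2l1, Melk and Nuf2. Over the tumours, r with the mean of the other members was 0.79 for Kif18a, 0.26 for Mad2l1, 0.29 for Melk and 0.55 for Nuf2, against -0.29 for Pttg1. A link between these elements and the levels was not tested.
Cdk1: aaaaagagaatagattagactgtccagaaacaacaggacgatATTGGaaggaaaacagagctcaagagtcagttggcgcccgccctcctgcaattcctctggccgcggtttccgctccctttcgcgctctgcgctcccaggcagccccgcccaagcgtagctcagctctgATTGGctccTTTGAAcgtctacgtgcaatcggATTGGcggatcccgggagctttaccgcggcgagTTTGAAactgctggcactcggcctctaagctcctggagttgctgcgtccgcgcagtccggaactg
Ccnb2: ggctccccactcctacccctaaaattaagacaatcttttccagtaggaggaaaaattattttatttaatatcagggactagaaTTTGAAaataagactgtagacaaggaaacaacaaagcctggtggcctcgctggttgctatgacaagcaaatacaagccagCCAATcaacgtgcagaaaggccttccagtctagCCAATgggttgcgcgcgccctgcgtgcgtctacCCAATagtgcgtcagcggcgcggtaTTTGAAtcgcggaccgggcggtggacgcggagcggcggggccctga
Plk1: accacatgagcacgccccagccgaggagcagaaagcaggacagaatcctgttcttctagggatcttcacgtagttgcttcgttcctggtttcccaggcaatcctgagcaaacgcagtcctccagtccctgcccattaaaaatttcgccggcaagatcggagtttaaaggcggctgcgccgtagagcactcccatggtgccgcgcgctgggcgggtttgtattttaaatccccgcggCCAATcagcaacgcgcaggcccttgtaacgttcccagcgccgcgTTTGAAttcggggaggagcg
Aurka: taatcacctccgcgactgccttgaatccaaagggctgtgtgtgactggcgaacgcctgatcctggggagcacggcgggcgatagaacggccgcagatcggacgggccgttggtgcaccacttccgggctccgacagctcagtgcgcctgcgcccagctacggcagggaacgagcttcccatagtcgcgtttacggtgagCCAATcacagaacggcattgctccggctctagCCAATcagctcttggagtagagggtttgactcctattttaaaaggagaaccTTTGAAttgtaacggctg
Cdc20: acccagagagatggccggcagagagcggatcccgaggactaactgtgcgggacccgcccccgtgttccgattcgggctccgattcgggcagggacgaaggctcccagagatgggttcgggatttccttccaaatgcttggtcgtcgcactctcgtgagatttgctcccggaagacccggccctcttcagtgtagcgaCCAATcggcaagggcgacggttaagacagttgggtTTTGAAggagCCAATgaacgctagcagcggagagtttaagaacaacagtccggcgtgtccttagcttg
Mki67: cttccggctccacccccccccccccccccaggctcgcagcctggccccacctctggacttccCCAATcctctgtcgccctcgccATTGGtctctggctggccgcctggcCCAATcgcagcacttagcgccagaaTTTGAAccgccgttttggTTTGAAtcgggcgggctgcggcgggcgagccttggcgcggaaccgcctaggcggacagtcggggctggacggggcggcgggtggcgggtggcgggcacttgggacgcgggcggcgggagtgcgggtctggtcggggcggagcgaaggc
Cenpf: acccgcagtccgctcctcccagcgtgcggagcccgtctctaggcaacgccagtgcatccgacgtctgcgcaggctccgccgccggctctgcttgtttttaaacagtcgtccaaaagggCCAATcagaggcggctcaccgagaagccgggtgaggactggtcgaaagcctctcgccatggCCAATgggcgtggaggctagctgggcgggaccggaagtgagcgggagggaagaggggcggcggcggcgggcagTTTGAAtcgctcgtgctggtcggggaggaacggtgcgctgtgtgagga
Pttg1: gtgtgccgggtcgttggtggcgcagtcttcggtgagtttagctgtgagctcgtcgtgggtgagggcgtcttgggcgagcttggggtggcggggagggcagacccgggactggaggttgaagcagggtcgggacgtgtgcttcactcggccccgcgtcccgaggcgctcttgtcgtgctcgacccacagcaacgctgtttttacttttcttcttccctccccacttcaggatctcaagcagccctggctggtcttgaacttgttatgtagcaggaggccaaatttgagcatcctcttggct

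**Figure D1:**
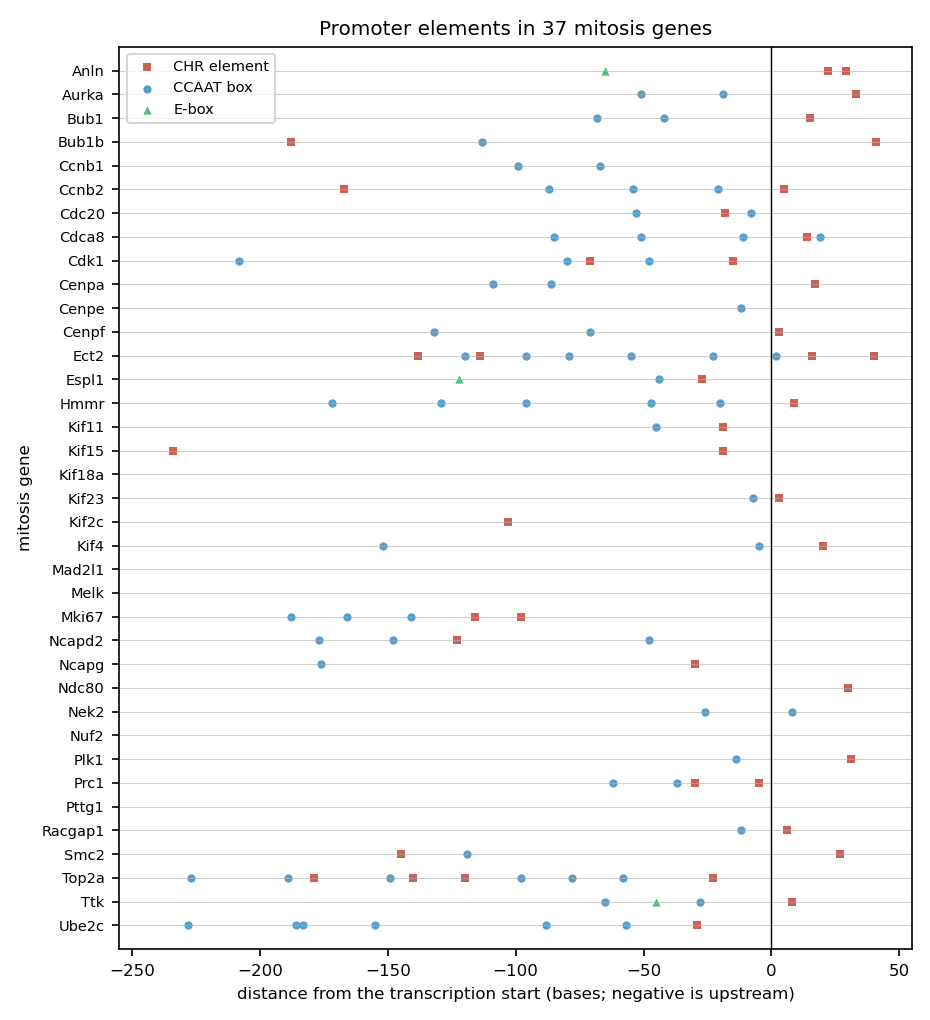
Positions of CHR elements (squares), CCAAT boxes (circles) and E-boxes (triangles) in the promoter windows of 37 mitosis genes; the x axis is the distance in bases from the transcription start, and each row is a gene. Ect2 and Prc1 have 2 windows each, so their elements appear once per start site. CHR elements lie within 50 bases of the start in 26 genes, and CCAAT boxes lie mostly upstream of it. The share of all genes at this distance was not counted.

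The arrays were close to each other over all probe sets, with Pearson's r between tumours from 0.954 (tumours 4 and 7) to 0.987 (tumours 1 and 2), across probe sets, which are not replicates. The median log2 level of an array was 5.63 to 5.75. Against the labelled tumour type, 20 of 20 neuronal genes and 8 of 9 measured adrenergic transcription factors were detected (background 57.3% of all genes). Tumour 6 stood apart in the adrenergic factors, whose mean was -1.78 there relative to the 8-tumour mean of each gene, against -0.23 to 0.50 in the others. Tumours 4 and 6 stood apart in Schwann cell and glia genes, at 1.64 and 1.07 against -0.85 to 0.04.

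Every measured mitosis gene was expressed in every tumour. Background was set on each array at the 95th percentile of odorant, pheromone and taste receptor genes (5.45 to 5.66 on the log2 scale), and 43 of 43 members passed limma's test of the mean over the tumours minus this background (Benjamini-Hochberg adjusted p of 1.26e-10 or below, n = 8). Over all genes the same test called 57.3%. The 43 members were also above background on each of the 8 arrays, which held for 54.5% of all genes, and the lowest single value lay 1.90 above it. Their means lay 2.17 to 5.60 above background on the log2 scale (median 3.86, against 2.24 for all detected genes). Transcripts in whole tumours were measured, so fewer dividing cells and less RNA per cell cannot be told apart, and the share of cells in mitosis was not measured.

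Genes of the cyclin B and Cdk1 switch were above background in all tumours, with Cdk1 and Ccna2 varying less than Ccnb2, Foxm1 and Cdc25c (SDs of 0.07 and 0.11, against 0.22, 0.20 and 0.27). Cdk1, the kinase that starts mitosis, ran from 10.85 (tumour 7) through a median of 10.94 to 11.10 (tumour 1), a mean of 10.95 ± 0.07 (SD, n = 8). No tumour stood out, and the whole range amounts to 1.19-fold. Ccna2, cyclin A2, was at 11.19 ± 0.11, and Ccnb2, cyclin B2, at 10.29 ± 0.22, highest in tumour 6 (10.61) and lowest in tumour 7 (9.87). Foxm1, the transcription factor that activates G2 genes, ran from 8.86 (tumour 4) through 9.28 to 9.45 (tumour 7). Cdc25c, the phosphatase that activates Cdk1, ran from 8.02 (tumour 4) through 8.44 to 8.71 (tumour 2). For Foxm1 and Cdc25c the lowest tumour was the same, tumour 4, while the highest differed.

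Mitotic kinases were detected throughout, with their lowest values mostly in tumour 7. Aurka, Aurora A, which builds spindle poles and is known to stabilise N-Myc protein, was at 9.64, 9.73, 9.87, 9.38, 9.79, 10.09, 9.26 and 9.39 in tumours 1 to 8. Its highest value, in tumour 6, exceeded its lowest, in tumour 7, by 1.79-fold. Plk1, a kinase of mitotic entry and spindle assembly, ran from 10.51 (tumour 7) through 10.79 to 10.96 (tumour 6), and Melk was at 8.76 ± 0.17, also lowest in tumour 7 and highest in tumour 6. Nek2, which splits centrosomes, was at 8.50 ± 0.18 and lowest in tumour 4.

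Spindle checkpoint genes spread more widely than most members. Bub1b, BubR1, was at 8.98, 9.10, 9.18, 8.65, 9.37, 9.52, 8.81 and 8.89 in tumours 1 to 8, so tumours 5 and 6 were high and tumour 4 low. Bub1, its partner kinase at the kinetochore, ran from 9.03 (tumour 4) through 9.47 to 9.71 (tumour 3). Mad2l1, which binds and blocks Cdc20, ran from 9.28 (tumour 7) through 9.82 to 9.92 (tumour 4), so tumour 4, the lowest for Bub1 and Bub1b, was the highest here. Ttk, the Mps1 kinase, was at 8.46 ± 0.22. The median SD of these 4 genes was 0.23, level with the median of all detected genes (0.23).

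The chromosomal passenger complex, which corrects faulty attachments, had its 3 members at 10.37 ± 0.18 (Aurkb, Aurora B), 8.71 ± 0.20 (Incenp) and 8.99 ± 0.17 (Cdca8, Borealin). Aurkb ran from 10.11 (tumour 8) through 10.38 to 10.62 (tumour 3), whereas Incenp was highest in tumour 8 (8.99) and lowest in tumour 4 (8.41). At centromeres and kinetochores, Cenpa, the centromeric histone, varied least by range of all 43 members, from 9.83 to 10.04. Cenpf, a large kinetochore protein of G2, varied most by SD (0.35), with 8.72, 9.11, 8.57, 8.22, 8.29, 8.23, 8.88 and 8.96 in tumours 1 to 8. Tumours 4, 5 and 6 were thus the low ones for Cenpf and tumour 2 the high one, 1.86-fold apart at the extremes. Ndc80, which grips microtubules, ran from 8.87 (tumour 4) through 9.27 to 9.64 (tumour 6). Its partner Nuf2 ran from 8.77 (tumour 6) through 8.95 to 9.42 (tumour 2). Cenpe, a kinetochore motor, was at 8.89 ± 0.17 and highest in tumour 6.

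Kinesins and spindle proteins held the widest range. Kif18a, which dampens chromosome oscillation, ran from 7.64 (tumour 4) through 8.13 to 8.55 (tumour 3), or 1.88-fold, the largest range of the 43. Kif4, a chromosome-bound motor, was at 8.56, 8.50, 8.46, 7.93, 7.93, 8.05, 8.52 and 8.69 in tumours 1 to 8, with tumours 4, 5 and 6 set apart below the other 5. Kif20a, a motor of the cleavage furrow, was highest in tumour 6 (10.18) and lowest in tumour 7 (9.44). The remaining 3 kinesins of this group, Kif2c, Kif11 and Kif15, had SDs of 0.16, 0.17 and 0.22, and Tpx2, Hmmr and Prc1, which organise spindle microtubules, 0.19, 0.18 and 0.18. All of these genes except Kif11 (lowest in tumour 5) and Kif20a had their lowest value in tumour 4.

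Chromosome structure genes included the proliferation marker Mki67, the Ki-67 antigen that coats mitotic chromosomes, at 11.09, 11.09, 10.80, 10.76, 10.66, 10.72, 11.07 and 11.17 in tumours 1 to 8. Tumours 1, 2, 7 and 8 were the high ones, and the extremes, tumours 8 and 5, were 1.42-fold apart. Top2a, topoisomerase II, which untangles sister chromatids, ran from 10.13 (tumour 4) through 10.43 to 10.61 (tumour 2). Ncapd2, a condensin subunit, ran from 10.05 (tumour 4) through 10.47 to 10.80 (tumour 2), while Smc2 and Smc4, the condensin ATPases, had SDs of 0.11 and 0.12. In anaphase and exit, Cdc20 was at 10.16 ± 0.20, Ube2c, the ubiquitin-conjugating enzyme of the anaphase-promoting complex, at 10.82 ± 0.14, and Espl1, separase, at 8.67 ± 0.18. Pttg1, securin, which holds separase inactive, was at 7.86 ± 0.21, highest in tumour 4 (8.18) and lowest in tumour 7 (7.52). The cytokinesis genes Anln, Ect2, Racgap1 and Kif23 had SDs of 0.21, 0.16, 0.12 and 0.21.

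**Figure D2:**
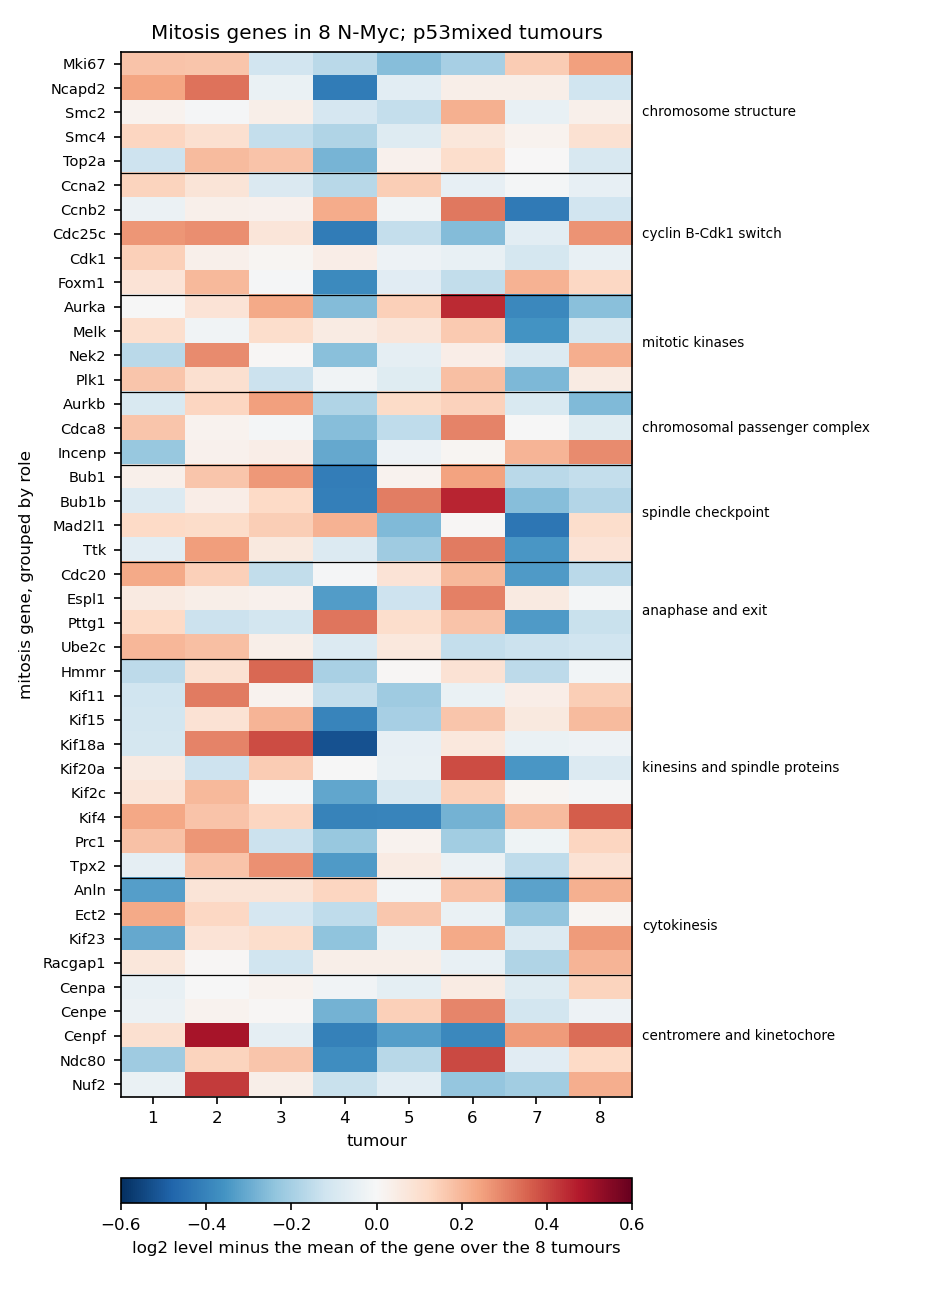
Log2 level of each of the 43 measured mitosis genes (rows, grouped by role) in the 8 tumours (columns), minus the mean of that gene over the tumours; red is above and blue below. Tumour 4 is the lowest column for 22 genes and tumour 7 for 13, and Pttg1 and Mad2l1 are highest in tumour 4.

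The members differed little between tumours. Their SDs over the 8 tumours ran from 0.07 (Cdk1 and Cenpa) to 0.35 (Cenpf), with a median of 0.20, against 0.23 for all detected genes, 0.22 for the 6302 other detected genes within the members' span of mean levels, and 0.16 for receptor genes. Of the 43, 35 lay below the median SD of detected genes. Receptor genes, taken as a gauge of noise, had 0.41 as the 99th percentile of their SDs, which 0 of the 43 and 14.6% of detected genes exceeded. Most receptor genes lie below the background that was set from them, lower than every member. Noise at the levels of the members was not measured. None of the 43 members reached a range of 1 on the log2 scale, or 2-fold, which 23.1% of detected genes did. With each array centred on its median, 2 members reached it, Cenpf (1.02) and Kif18a (1.003), against 23.3% of detected genes. There is 1 array per tumour, so technical and biological spread cannot be told apart, and these SDs were given no test. Without tumours 4 and 6 the median SD was 0.17 for members and 0.21 for detected genes, and 0 of the 43 members and 8.1% of detected genes exceeded the 99th percentile of receptor genes.

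**Figure D3:**
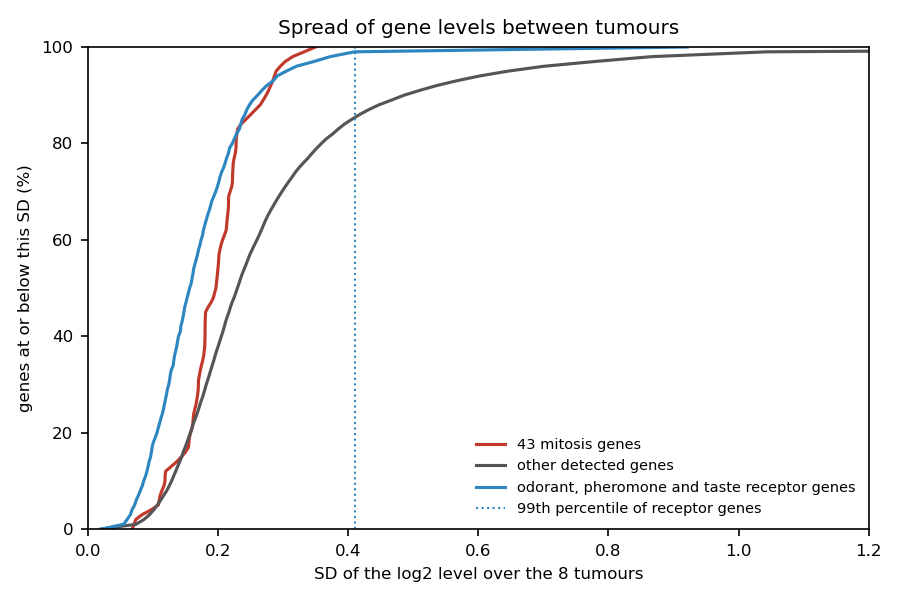
Cumulative share of genes (y axis, percent) at or below a given SD of the log2 level over the 8 tumours (x axis) for the 43 mitosis genes, the other detected genes and the receptor genes. The dotted line marks the 99th percentile of receptor genes, 0.41, and every mitosis gene lies to its left, the highest being Cenpf at 0.35.

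Many members shared small shifts between the arrays. With 1 array per tumour, shifts of this size cannot be told from array noise. Averaged over the 43 genes, each centred on its 8-tumour mean, the level was 0.02, 0.13, 0.05, -0.18, -0.04, 0.08, -0.11 and 0.04 in tumours 1 to 8 on the log2 scale. Tumour 2 was thus the highest and tumour 4 the lowest, and they were 1.24-fold apart. In tumour 2, 38 of the 43 genes were above their own mean, against 7 in tumour 4. The same share was not counted over all detected genes, whose mean was -0.01 in tumour 2 and 0.01 in tumour 4. Tumour 4 was the lowest tumour for 22 members (background 13% of detected genes) and tumour 7 for 13 (background 17%). The remaining minima lay in tumours 5 (3, background 11.2%), 1 (2, 14.4%), 6 (2, 16%) and 8 (1, 11.4%), and none in tumours 2 (8.29%) and 3 (8.69%). Tumour 6 was the highest for 12 members (background 18.3%) and tumour 2 for 9 (background 6.91%). Tumour 8 was the highest for 7 (16.1%), tumour 3 for 6 (13.7%), tumour 1 for 5 (7.87%), tumour 4 for 2 (13.4%), and tumours 5 (14.1%) and 7 (9.65%) for 1 each. Left out 1 at a time, tumour 4 left tumour 7 with 18 minima (background 18.1%), and tumour 6 left tumour 4 with 22 (background 17.9%). The mean in tumour 4 lay between -0.27 and -0.16 over all settings tried, and that in tumour 2 between 0.10 and 0.17. With arrays centred on their medians tumour 4 was at -0.27, since its gene median lay 0.09 above the average of the arrays. These means have no replicate within a tumour, and the smaller ones changed order with the scaling (tumour 3 was at 0.05, and at -0.01 after a further quantile normalization).

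Genes of the other cell types moved between tumours by more than the mitosis genes. Endothelial genes (12 of 14 detected, Tek and Cldn5 not) averaged 6.36 in tumour 1 to 7.52 in tumour 4 over all measured members, and Schwann cell and glia genes (7 of 10 detected, S100b, Cdh19 and Ngfr not) 5.70 in tumour 1 to 7.98 in tumour 4. Tumour 4, the lowest for mitosis genes, was thus the highest for both lists. All 10 glia genes were above background in tumour 4 and 6 to 9 of them elsewhere, whereas all 14 endothelial genes were above it in tumours 3, 4, 5 and 8. Tumour 7, the next lowest for mitosis genes, was at 6.51 and 6.11. Macrophage genes (14 of 17) ranged from 6.97 (tumour 1) to 8.03 (tumour 3), fibroblast and pericyte genes (14 of 15) from 7.61 (tumour 1) to 8.52 (tumour 3), and skeletal muscle genes (8 of 14) from 5.85 (tumour 5) to 7.60 (tumour 6). Of T cell genes 1 of 9 was detected. Over all genes 57.3% passed the same test, a share close to that of the muscle list (57.1%). Over the 8 tumours, the mitosis mean correlated with the list means at r = -0.32 (endothelial), -0.41 (glia), -0.02 (macrophage), 0.21 (fibroblast) and 0.66 (muscle), as descriptions over points that share arrays and scaling. Their part in the shifts of the mitosis genes was not tested.

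Within these lists the most variable genes had larger SDs than any mitosis gene. The glial genes Fabp7, Erbb3 and Sox10 had SDs of 2.20, 1.52 and 1.12, and the endothelial genes Emcn, Cdh5 and Erg 0.68, 0.60 and 0.57. The macrophage genes Ctss, Adgre1 and Ms4a7 had SDs of 0.59, 0.54 and 0.53, the fibroblast genes Pdpn, Postn and Dcn 0.92, 0.84 and 0.79, and the muscle genes Tnnt3, Acta1 and Ckm 1.34, 1.33 and 0.99. For the tumour lineage itself, the adrenergic factors Tfap2b, Gata2 and Tbx2 had SDs of 2.28, 1.43 and 1.03, and the neuronal genes Prph, Elavl4 and Elavl2 0.98, 0.59 and 0.58. In tumour 6, where Tfap2b was at 4.88, Mki67 was at 10.72 and the mitosis genes averaged 0.08.

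**Figure D4:**
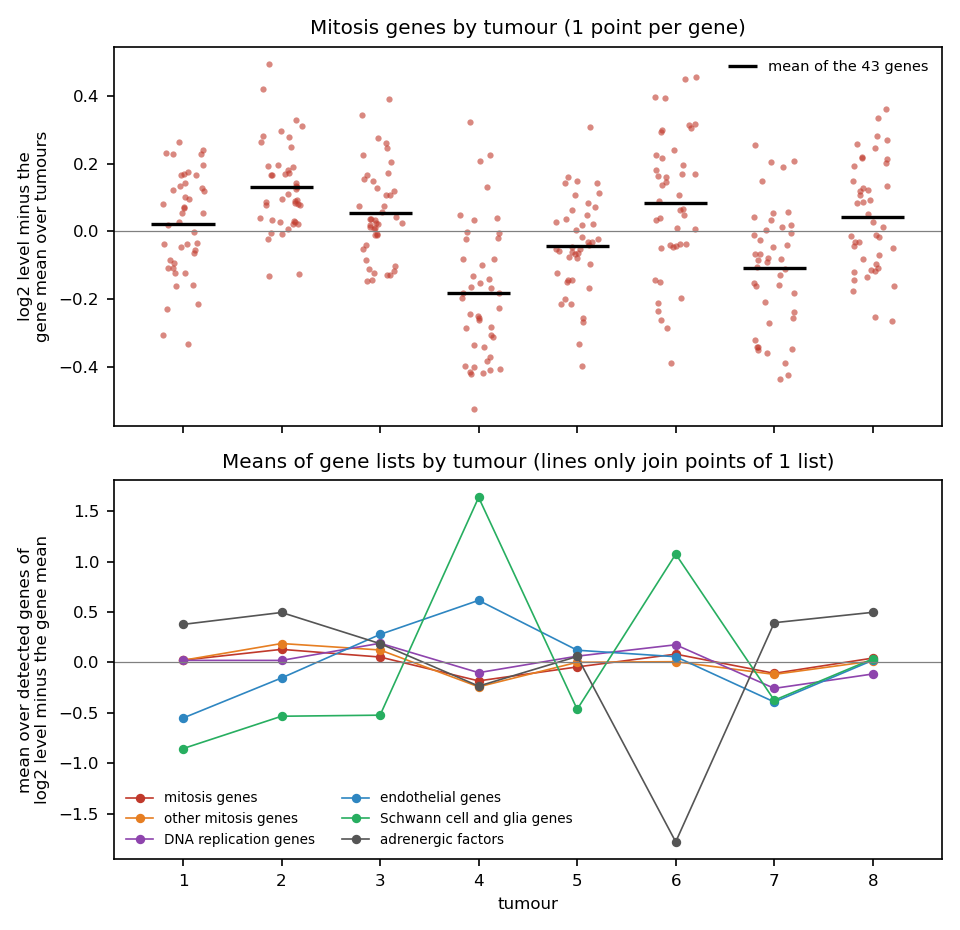
Top, each of the 43 mitosis genes as a point in each tumour, as its log2 level minus its mean over the tumours, with the mean of the genes as a bar (0.13 in tumour 2, -0.18 in tumour 4). Bottom, the means of 6 gene lists on the same scale: mitosis, other mitosis and DNA replication genes stay within about 0.26 of 0, while glia genes reach 1.64 in tumour 4 and adrenergic factors -1.78 in tumour 6.

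The members did not move as a single block. Over the 8 tumours the median Pearson's r of the 903 pairs of members was 0.29, with 75.3% of pairs positive, against a median of 0.01 and 51.1% over all pairs of detected genes. The central 50% of member pairs lay between 0.00 and 0.54. With arrays centred on their medians the median of member pairs was 0.46, but that over all pairs of detected genes was not computed for this setting. Kif2c followed the mean of the other members most closely (r = 0.85), then Bub1 (0.83), whereas Pttg1 ran against it (-0.29). These are descriptions over 8 points that share arrays, and pairs of genes are not replicates.

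A pair of patterns accounted for much of the spread among members. A principal component analysis of the centred values put 36.98% of their variance on a component with tumour 4 at -0.78 and tumour 2 at 0.48, on which 36 of the 43 genes had the same sign, and 30.0% on a component with tumour 6 at 0.69 against tumour 7 at -0.56 and tumour 8 at -0.31. The second component set Aurka, Bub1b, Kif20a and Ccnb2 at the end of tumour 6 and Cenpf, Kif4, Mki67, Foxm1 and Cdc25c at the other end. At the end of tumour 6 Aurka and Bub1b correlated at r = 0.92, and at the opposite end Mki67 and Cenpf at 0.92, Mki67 and Kif4 at 0.91, and Kif4 and Cenpf at 0.89. Bub1b and Cenpe had the highest r of all pairs (0.96), and Top2a and Kif18a reached 0.94. Pttg1 and Foxm1 had the lowest (-0.87), followed by Pttg1 with Incenp (-0.82) and with Cenpf (-0.78), and Ccnb2 with Foxm1 was at -0.75. Both sets were read from these same values and have no test.

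**Figure D5:**
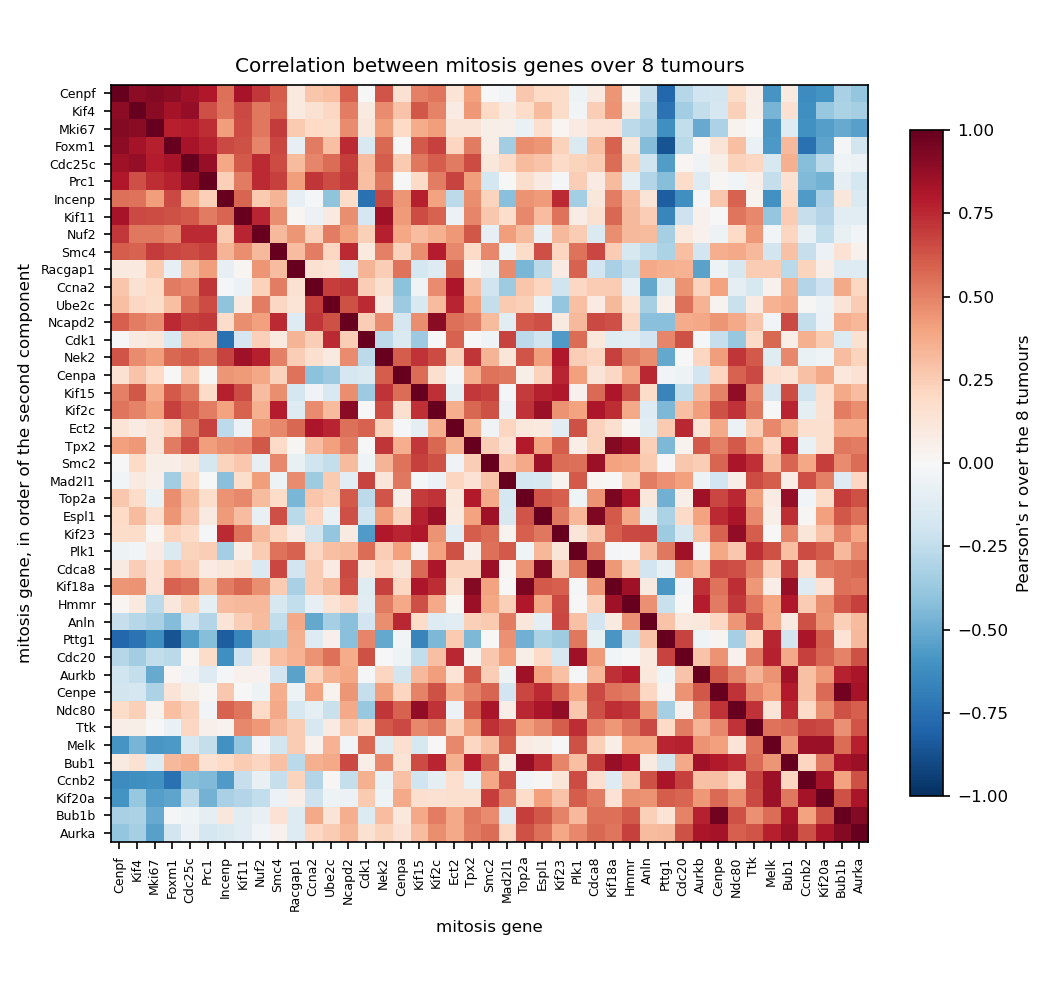
Pearson's r between each pair of the 43 mitosis genes over the 8 tumours (red positive, blue negative), with genes in the order of the second component. Cenpf, Kif4, Mki67, Foxm1, Cdc25c and Prc1 form a block at the top left, Aurka, Bub1b, Kif20a and Ccnb2 lie at the bottom right, and Pttg1 is negative against the genes at the top left.

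Relations between single genes asked whether known regulators moved with the mitosis genes. Of 10 planned relations 9 were computed, since Ccnb1 had no value, each with an exact two-sided permutation test over all pairings of the 8 tumours and Benjamini-Hochberg adjustment over the 9. Foxm1 correlated with Cenpf (r = 0.89, exact permutation p = 0.00151, adjusted p = 0.0136; rho = 0.93, p = 0.00223, adjusted p = 0.0201), and r was 0.92 without tumours 4 and 6, the farthest from the Foxm1 median. Cenpf and Foxm1 were both lowest in tumour 4. The call, which needs an adjusted p under 0.05, was lost without tumour 1 (r = 0.89, exact permutation adjusted p = 0.05) and without tumour 8 (r = 0.89, exact permutation adjusted p = 0.0571). Foxm1 did not pass with Plk1 (r = -0.14, rho = -0.24), Cdc20 (r = -0.27, rho = -0.36) or Aurkb (r = 0.02, rho = -0.10), which are also among its known targets (exact permutation p = 0.731, 0.521 and 0.96 for r, 0.582, 0.389 and 0.84 for rho, all adjusted p of 0.693 or above). Without tumours 4 and 6 these r were 0.02, -0.27 and -0.46, and with 1 tumour left out at a time they ran from -0.30 to 0.24, from -0.45 to 0.03 and from -0.51 to 0.22. The difference between the Cenpf relation and the other 3 was not tested.

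Mki67 passed with none of its 5 partners. With Mycn, at 6.65 ± 0.34, r was 0.33 (rho = 0.31, exact permutation p = 0.43 and 0.462, adjusted p = 0.775 and 0.693). Mycn lay 1.06 above background on average and 0.45 above it in tumour 6, its lowest. The sources used here do not say whether the Mycn probe set detects the transduced N-Myc. With Cdkn1a, the p21 inhibitor of cyclin-dependent kinases, r was 0.43 (rho = 0.38, exact permutation p = 0.318 and 0.36, adjusted p = 0.729 and 0.693). With Col1a1, a fibroblast collagen, r was 0.09 (rho = 0.00, exact permutation p = 0.816 and 1, adjusted p = 0.918 and 1), with Csf1r, a macrophage receptor, -0.57 (rho = -0.55, exact permutation p = 0.14 and 0.171, adjusted p = 0.632 and 0.693), and with Tubb3, a neuronal tubulin, 0.40 (rho = 0.48, exact permutation p = 0.324 and 0.243, adjusted p = 0.729 and 0.693). Without tumours 5 and 8, the farthest from the Mki67 median, r was 0.30 for Mycn, 0.29 for Cdkn1a, 0.02 for Col1a1, -0.73 for Csf1r and 0.47 for Tubb3. Single tumours moved these values further: r with Mycn was 0.04 without tumour 6 and 0.56 without tumour 3, r with Cdkn1a 0.21 without tumour 6 and 0.71 without tumour 4, and r with Tubb3 0.19 without tumour 6 and 0.65 without tumour 4. For Col1a1 r was -0.26 without tumour 4 and 0.30 without tumour 6, and for Csf1r it lay between -0.74 and -0.49. With 8 tumours a p above the threshold does not show that genes are unrelated.

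Other genes of the pathway were also above background. Of 80 further mitosis genes 75 had a value and 75 of 75 were detected (limma, background 57.3%), with a median SD of 0.24. Of these 10 reached a range of 1 on the log2 scale (background 23.1%), and Cenpk, a centromere protein, Mastl, the Greatwall kinase, and Psrc1, a spindle protein, had the largest SDs (0.51, 0.43 and 0.40). Their mean was -0.24 in tumour 4 and 0.19 in tumour 2, the same extremes as for the members (r = 0.92 between the means, as a description). All 35 measured DNA replication genes were detected as well, with their lowest mean in tumour 7 (-0.26) and highest in tumour 3 (0.19), and Tk1, Mcm10 and Gins2 varied most (SDs of 0.38, 0.35 and 0.33). Their mean correlated with that of the mitosis genes at r = 0.60.

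The meiotic counterparts of this machinery were mostly at background. Of 27 measured genes on the meiosis list 6 were detected (limma, background 57.3%). They were Rec8 and Stag3, subunits of meiotic cohesin, Syce2, a synaptonemal complex protein, Ccna1, cyclin A1, Plk5 and Aurkc, Aurora C. Plk5, a polo-like kinase, was counted with this list but is not a meiosis gene. Aurkc lay 0.42 above background, Ccna1 0.55 and Plk5 0.65. Ccnb3, Kif2b, Sycp1, Dmc1, Spo11 and Stra8 were below background (means of 3.51, 5.03, 3.14, 4.84, 3.92 and 3.91). Syce2 was at 8.80 ± 0.22, and Rec8 was at 4.80 in tumour 3 and between 6.93 and 8.11 in the other 7.

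Outside the members, the 10 detected genes most like the mitosis mean were looked up among 3743 with an SD of at least 0.3, by Pearson's r over the 8 tumours. They were Gpr137b (r = 0.92), Ska3 (0.89), a kinetochore protein, Mtcp1 (0.86), Ankrd44 (0.85), Mir18 (0.83), a microRNA of the Mir17-92 cluster, Gm10589 (0.79), Srsf10 (0.78), a splicing factor, Car3 (0.78), H2aw (0.77), a histone H2A gene, and Hspb6 (0.77). Of these 8 were lowest in tumour 4, Ska3 and Hspb6 being lowest in tumour 7. The tumour 4 values of Gm10589 and Car3 were below background (-0.69 and -0.30 relative to it). The highest of many correlations over 8 points is high by selection, so the list is a description.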

How the data were processed

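Total RNA of each of the 8 tumours was measured on 1 array. The deposited values are log2 levels per probe set, made by the authors; the submitters' processing notes name RMA, a method of background correction, quantile normalization and summary, and Partek 6.5. Values of 2.07 to 13.61 fit a log2 scale. The annotation names 25335 of 41345 probe sets, 23521 with 1 symbol (22180 genes), 1814 with several and 16010 with none; where a gene had several, the one with the highest mean was read.

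Detection was tested over all genes with limma 3.58.1 in R 4.3.3 (trend, robust prior) against the 95th percentile of 1435 receptor probe sets on the same array, detected meaning a mean above it with a Benjamini-Hochberg adjusted p under 0.05, and the script was tested on simulated data. Other computations used Python 3.11.15, numpy 2.4.6, pandas 2.3.3, scipy 1.17.1 and matplotlib 3.10.9. The members and lists were chosen with earlier results of these data known. Genes given in full are Mki67, Top2a, Cdk1, Plk1, Aurkb, Foxm1 and the 10 members with the largest SD; outside the members, the 10 genes most like their mean, the 3 of largest SD of each list, and the detected meiosis genes. Per-tumour values of further members were chosen after they were seen. Alternatives covered the probe set rule, renormalization, background, variance model, summary, motif window and each tumour left out. Arrays carry no molecule counts, and their number limits the precision.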

Additional observations from a re-analysis of the deposited data

Results flagged for a closer look

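For each value examined, the gap between an extreme tumour and its nearest neighbour was divided by the whole range of the 8. It exceeded Dixon's critical value of 0.526 for 10 of 109. Chance alone marks about 5% of groups that were not chosen for their values. Many values outside the members were chosen for a large SD or for likeness to the mitosis mean, so this rate does not apply to them. None of the 43 mitosis genes nor their mean was among the 10 marked. Tumour 6 stood apart in 6: the mean of the adrenergic transcription factors was -1.78 there against -0.23 to 0.50 in the others, Tfap2b was at 4.88 against 10.39 to 11.63, and Tbx2 at 6.24 against 8.46 to 9.48. In the same tumour Cdkn2a, a cell cycle inhibitor locus, was at 8.01 against 6.26 to 7.003, Gins2, a DNA replication factor, at 9.84 against 8.74 to 9.16, and Plk5 at 7.47 against 5.91 to 6.21. In tumour 3 Rec8, the meiotic cohesin gene, was at 4.80 against 6.93 to 8.11. The mean of the 6 detected genes on the meiosis list, Rec8 and Plk5 included, was at -0.48 there against -0.02 to 0.13. In tumour 4 Gm10589 was at 4.97 against 5.98 to 6.36, a value below background (-0.69 relative to it). In tumour 2 Aurkc was at 5.84 against 5.97 to 6.09.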

How the results depend on the processing

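Detection of the 43 mitosis genes held under every alternative run. The count over all genes was 12699, and 20163 against the median of receptor genes. With noise set at the 95th percentile of receptor SDs in place of the 99th, 2 mitosis genes exceeded it in place of 0, against 28.5% of detected genes in place of 14.6%. With arrays centred on their medians, 2 members reached a range of 1 and the median r of member pairs was 0.46. The median r over all pairs of detected genes was not computed for that setting. Of the relations, 1 passed, and 0 to 1 passed with each tumour left out in turn: Foxm1 with Cenpf (r between 0.88 and 0.95) missed the threshold without tumour 1 or tumour 8, and the cause was not tested. The median SD of members ran from 0.17 to 0.21, and tumours 2 and 4 stayed the extremes of the mean in each setting that held both. Leaving out tumours 4 and 6 together was chosen after seeing the data. No paired analysis was possible because there is 1 group. The CHR element was in 27 members (73%) in the shorter window, against 9.87% of all genes, and TTTGAA alone in 28 (75.7%), against 20.2%. Arrays give no depth, and without a second array per tumour shifts of this size cannot be told from array noise.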

Other observations

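The genes that hold the cell cycle back were detected beside the mitosis genes. All 7 CDK inhibitor genes were above background (limma, against 57.3% of all genes), and 5 of the 7 reached a range of 1 on the log2 scale, against 0 of the 43 mitosis genes and 23.1% of detected genes. Cdkn1a, a p53 target, ran from 8.36 in tumour 6 through 9.75 to 10.30 in tumour 4, and Cdkn2c from 5.69 in tumour 1 through 6.24 to 7.10 in tumour 4. Both were highest in tumour 4, the lowest for mitosis genes, but the other 5 were not: Cdkn2a (8.01) and Cdkn2b (7.07) were highest in tumour 6, Cdkn1c in tumour 5, and Cdkn1b and Cdkn2d in tumour 8. The mean of the 7 inhibitors was highest in tumour 4 (0.31) and lowest in tumour 7 (-0.19), the tumours with the lowest means of the mitosis genes.

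The 13 genes of the DREAM and B-Myb complexes were detected too (background 57.3% of all genes). Their mean was lowest in tumour 7 (-0.14), close to tumour 4 (-0.13), and highest in tumour 3 (0.19), followed by tumour 2 (0.10). For the mitosis genes the extremes were tumours 4 and 2. The means of the lists correlated at r = 0.57 (rho = 0.62) over the 8 tumours, as a description. Mybl1, Tfdp2 and Rbl1 varied most (SDs of 0.47, 0.41 and 0.41), and Rbl1, the pocket protein p107, ran from 7.81 in tumour 4 through 8.48 to 8.91 in tumour 2. Mybl2, B-Myb, ran from 8.78 in tumour 4 through 9.19 to 9.46 in tumour 5, and Lin54, the subunit that binds the CHR element, stayed between 8.11 and 8.40.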
